A study of Mus musculus with 18 samples.

Results

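Genes of the cell death machinery were described in mouse retina and in the tissue behind it, the retinal pigment epithelium with choroid (RPE/choroid). The 36 genes were chosen by symbol, from the roles of their products, with earlier results of these data known. All 36 were found among the 22558 genes of both gene tables. They comprise 3 initiator caspases, 3 inflammatory caspases, 3 pore-forming, 3 protective and 5 BH3-only proteins of the BCL2 family, 5 apoptosome and mitochondrial factors, 3 inhibitors of apoptosis, 4 members of the death receptor pathway, 3 necroptosis genes, 2 genes of the DNA damage response and 2 calpains. RNA sequencing covered 18 libraries, 3 in each of 6 groups, from mice aged 30 days on a mixed 129SV and C57BL/6 background. Knock-in mice were homozygous for the Abca4 L541P;A1038V allele, knockout mice were Abca4-/-, and wild-type mice carried neither change; each genotype gave retina and RPE/choroid. Tissue was dissected from 3 to 5 PM, and the 2 tissues came as separate samples. The labels do not state whether each library came from its own animal, so a p-value here is set against a spread between libraries that may be partly technical. By Xist and Ddx3y, males gave 0 of 3 knock-in, 1 of 3 knockout and 2 of 3 wild-type retina libraries and 2, 3 and 3 of the RPE/choroid libraries, so the groups of both sexes hold more than 1 animal. Sex was not balanced between genotypes or between tissues. Libraries are named by genotype and by the numbers 0 to 2 that the tables use.

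Abca4 encodes a transporter of photoreceptor outer segments that clears retinoid adducts of the visual cycle, and its mutation causes Stargardt disease, in which RPE cells and then photoreceptors are lost. Cells die by several programmes. In apoptosis, BH3-only proteins release BAX and BAK from BCL2, BCL-XL and MCL1, cytochrome c leaves the mitochondria and joins APAF1 to activate caspase-9, while death receptors act through FADD on caspase-8. In necroptosis RIPK1 and RIPK3 activate MLKL, which breaks the plasma membrane, and in pyroptosis inflammatory caspases cleave gasdermin D. Parthanatos depends on PARP1 and AIF, and calpains are calcium-activated proteases described in dying photoreceptors.

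Total fragments assigned to genes were 11.6 M to 23.6 M in retina and 14.6 M to 30.0 M in RPE/choroid, of which the 36 genes took 0.165% to 0.192% and 0.206% to 0.222%. As a check of the labels, Abca4 in retina had 232.5, 197 and 182 FPKM (fragments scaled for transcript length and library size) in knock-in libraries, 81.8, 80.3 and 73.9 FPKM in knockout libraries, and 282.5, 250.7 and 228 FPKM in wild-type libraries. Knockout retina was lower than wild-type retina (log2 difference -1.68, edgeR adjusted p = 4.33e-08), and the value in knock-in retina was not called (-0.30, edgeR adjusted p = 0.186). In RPE/choroid edgeR did not call Abca4 between any genotypes. The log2 difference was -0.789 for knockout over wild type (edgeR adjusted p = 0.102), -0.234 for knock-in over wild type (edgeR adjusted p = 0.888) and 0.555 for knock-in over knockout (edgeR adjusted p = 0.246). The edgeR check was thus met in retina only. Wild-type RPE/choroid library 2 stood apart, with a summed level of rod genes of 2852 FPKM against 131 to 548 FPKM in the other 8 RPE/choroid libraries. Summed lens genes ranged from 60.0 to 15530 FPKM over the retina libraries. In RPE/choroid, library 2 of every genotype had the highest FPKM of its group for 10 of the 36 genes, among them Xiap, Cycs and Casp12, and the lowest for 5, among them Bax and Bok. By counts per library size (TMM-scaled CPM, here scaled CPM) these numbers were 0 and 4. Levels are therefore compared between genes in FPKM, which is per length. Between genotypes, levels of the 36 genes are compared mainly in scaled fragments, the scale of the tests. Tissue ranges of the 36 genes are mostly given in FPKM, and so are library values of Abca4 and summed markers.

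The letters upstream of the inflammatory caspase genes are shown first, since these 3 genes were called lower in retina in every genotype and lie side by side on chromosome 9. Per the deposited tables (mm9), Casp1 spans chr9:5298517-5307281, Casp4 chr9:5308860-5336791 and Casp12 chr9:5345476-5373034, with 1578 and 8684 bases between them. Below are the 250 bases before the start of each, and of Parp1 and Mcl1 for comparison, from RefSeq (GRCm38.p6, plus strand in each case). The windows are chr9:5298267-5298516 for Casp1, chr9:5308610-5308859 for Casp4, chr9:5345226-5345475 for Casp12, chr1:180568641-180568890 for Parp1 and chr3:95658471-95658720 for Mcl1. Capitals mark CG pairs.
Casp1: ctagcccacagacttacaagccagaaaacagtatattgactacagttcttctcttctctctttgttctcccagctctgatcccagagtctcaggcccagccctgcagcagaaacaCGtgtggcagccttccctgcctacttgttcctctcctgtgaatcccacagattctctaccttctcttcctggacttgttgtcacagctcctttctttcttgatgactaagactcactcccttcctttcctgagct
Casp4: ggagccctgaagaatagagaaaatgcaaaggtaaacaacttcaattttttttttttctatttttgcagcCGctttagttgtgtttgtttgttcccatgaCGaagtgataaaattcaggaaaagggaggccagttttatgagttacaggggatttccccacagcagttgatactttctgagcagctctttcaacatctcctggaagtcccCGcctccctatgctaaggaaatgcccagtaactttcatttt
Casp12: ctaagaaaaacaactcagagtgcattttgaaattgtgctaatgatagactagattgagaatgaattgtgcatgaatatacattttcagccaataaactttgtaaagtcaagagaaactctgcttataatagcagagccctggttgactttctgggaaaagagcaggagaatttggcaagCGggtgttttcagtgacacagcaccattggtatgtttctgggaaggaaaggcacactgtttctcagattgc
Parp1: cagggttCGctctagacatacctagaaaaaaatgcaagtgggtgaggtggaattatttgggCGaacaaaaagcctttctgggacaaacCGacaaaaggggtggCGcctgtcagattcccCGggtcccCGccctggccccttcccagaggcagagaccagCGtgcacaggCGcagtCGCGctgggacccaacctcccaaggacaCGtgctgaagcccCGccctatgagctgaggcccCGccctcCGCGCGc
Mcl1: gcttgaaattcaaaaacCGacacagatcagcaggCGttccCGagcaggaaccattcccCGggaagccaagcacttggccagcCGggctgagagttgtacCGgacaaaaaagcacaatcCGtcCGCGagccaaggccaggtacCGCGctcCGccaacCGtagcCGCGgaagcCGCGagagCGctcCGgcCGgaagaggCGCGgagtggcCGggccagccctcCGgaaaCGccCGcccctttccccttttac
The windows hold 1 CG pair for Casp1, 3 for Casp4, 1 for Casp12, 16 for Parp1 and 26 for Mcl1, a ratio of observed to expected CG pairs of 0.077, 0.288, 0.109, 0.676 and 1.012. The comparison gene Mcl1 was itself called lower in retina in every genotype. Pmaip1, also at a median under 1 FPKM in retina, had no matched promoter. A promoter was matched for 35 of the 36 genes. The 8 of these with a median under 1 FPKM in retina had ratios of 0.077 to 0.554 (median 0.377), and the other 27 had 0.38 to 1.188 (median 0.836). All 27025 promoters in the table had a median of 0.403. The groups overlapped, with Bak1, Tnfrsf1a, Trp53 and Capn1 among the 27 at or under 0.554. A gene with several listed starts is given by the start with the highest ratio, for the 36 genes and for all others alike.

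Most of the cell death genes were present at a lower level in retina than in RPE/choroid, in every genotype. In knock-in mice 31 of the 36 genes differed between retina and RPE/choroid, 3 higher and 28 lower in retina; in knockout mice 32 did, 3 higher and 29 lower; in wild-type mice 30 did, 3 higher and 27 lower (edgeR, adjusted p under 0.05). Of all genes tested, 86.4% were called in knock-in, 85.5% in knockout and 85.9% in wild-type mice, so the share of cell death genes called, 83.3% in wild-type mice, is near the background. Of all genes tested, 42.1% were called higher and 44.3% lower in knock-in retina, 41.6% and 43.9% in knockout retina, and 41.9% and 44.0% in wild-type retina, whereas 75.0% of the 36 were called lower in wild-type retina. The median log2 difference of the 36 genes, retina over RPE/choroid, was -1.47 in knock-in, -1.28 in knockout and -1.17 in wild-type mice, beside -0.03, -0.03 and -0.04 over all genes tested. The genes called in all 3 genotypes numbered 30, of which Xiap, Parp1 and Birc2 were higher in retina and 27 lower.

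RPE/choroid libraries are a mixture of more tissues than the epithelium. Summed skeletal muscle markers were 3.76 to 7.77 FPKM in retina and 4896 to 9358 FPKM in RPE/choroid, and all 11 markers had the higher median in RPE/choroid, Tnnt3 being at a median of 0 in retina. Summed fibroblast markers were 6.25 to 23.7 FPKM in retina and 4120 to 5828 FPKM in RPE/choroid (8 of 8 markers), and summed microglia and leukocyte markers were 24.7 to 49.0 FPKM in retina and 254 to 373 FPKM in RPE/choroid (12 of 13 markers, all but P2ry12). The part of these cells in the tissue differences was not tested, and in bulk samples fewer cells of a type and less RNA per cell cannot be told apart. FPKM of the 2 tissues were normalized separately by the authors, whereas the tests between them used fragments scaled together.

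**Figure D1:**
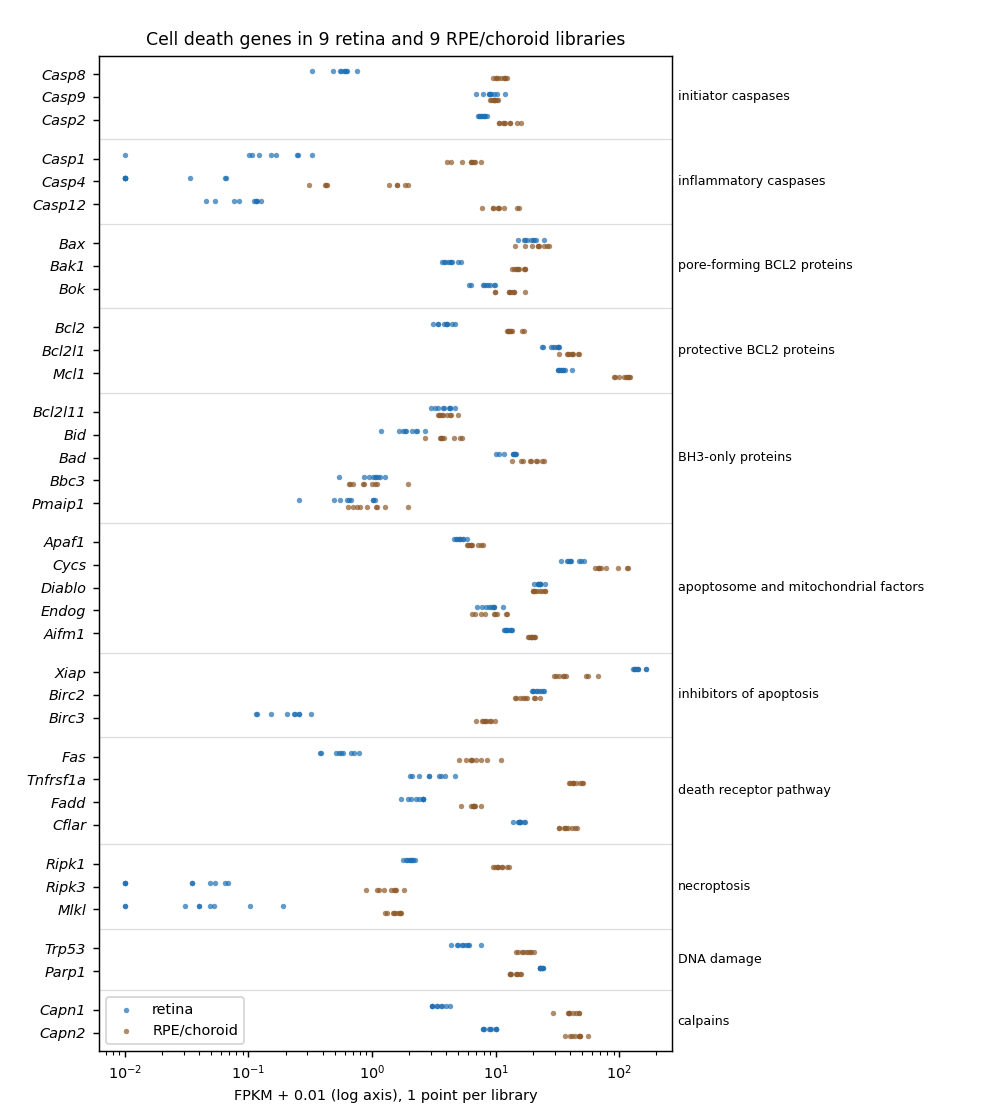
Level of each of the 36 genes in FPKM + 0.01 (log axis), 1 point per library, with 9 retina libraries above 9 RPE/choroid libraries in each row and genes ordered by role. Xiap is the highest retinal gene of the set and the inflammatory caspases, Birc3, Ripk3 and Mlkl lie far below their level in RPE/choroid.

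The plot of levels by gene shows a wider spread in retina. Median FPKM was under 1 for 9 genes in retina (Casp8, Casp1, Casp4, Casp12, Pmaip1, Birc3, Fas, Ripk3 and Mlkl) and for 2 in RPE/choroid (Bbc3 and Pmaip1). At least 10 FPKM was reached by 11 genes in retina and 22 in RPE/choroid. Over the 9 libraries of each tissue, FPKM ranges did not overlap for 27 genes, with retina above for 2 (Xiap and Parp1) and below for 25. Among all genes with a mean of at least 1 FPKM in a tissue, 69.1% did not overlap, 33.7% with retina above and 35.4% with retina below, where the cell death genes had 2 and 25 of 35.

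Among initiator caspases, Casp8, which starts apoptosis at death receptors, was nearly silent in retina. Its lowest, median and highest FPKM were 0.319, 0.588 and 0.744 in retina, against 9.50, 11.03 and 12.4 in RPE/choroid, with no overlap, and its log2 difference was -4.44 in knock-in, -4.21 in knockout and -4.43 in wild-type mice (edgeR adjusted p at most 3.54e-13). Casp9, the caspase of the apoptosome, was close in the tissues, at 6.92, 8.99 and 11.9 FPKM in retina and 9.03, 9.78 and 10.5 FPKM in RPE/choroid. Its difference was called in knockout mice alone (-0.20, edgeR adjusted p = 0.0383), a call that was lost on leaving out any 1 library of the knockout groups. Casp2, a caspase activated by the PIDDosome, was called lower in retina in all genotypes (-0.69 in knock-in, -0.76 in knockout and -0.50 in wild-type mice).

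All 3 inflammatory caspases were called far lower in retina. Casp12 encodes a caspase described at the endoplasmic reticulum in mouse. Its retinal scaled CPM were 0.34, 0.328 and 0.152 in knock-in, 0.146, 0.312 and 0.233 in knockout and 0.125, 0.360 and 0.169 in wild-type libraries. In RPE/choroid they were 26.3, 29.8 and 25.7 in knock-in, 31.1, 28.5 and 28.4 in knockout and 29.4, 27.2 and 21.0 in wild-type libraries. Every retina library lay far below every RPE/choroid library, and the genotypes overlapped. The log2 difference was -6.57 (SE 0.213) in knock-in, -6.94 (SE 0.227) in knockout and -6.86 (SE 0.245) in wild-type mice, with edgeR adjusted p of 4.33e-14, 5.22e-14 and 1.49e-13.

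Casp4, the mouse caspase-11 gene, senses intracellular lipopolysaccharide and cleaves gasdermin D. Retina gave 1, 0 and 0 fragments in knock-in, 2, 0 and 1 in knockout and 0, 0 and 0 in wild-type libraries, whereas RPE/choroid gave 15, 43 and 44 in knock-in, 59, 46 and 44 in knockout and 13, 18 and 7 in wild-type libraries. From summed fragments it was 132-fold lower in knock-in retina (exact 95% interval 23.2 to 5270, counting error only) and 44.4-fold lower in knockout retina (14.9 to 218). In wild-type retina it was at least 8.23-fold lower, taking a floor of 3 fragments over the 3 libraries. Casp1, which matures interleukin-1 beta and interleukin-18, ranged from 0 to 0.320 FPKM in retina and from 3.995 to 7.56 FPKM in RPE/choroid.

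The BCL2 family differed less. Of the pore formers, Bax was closest, with lowest, median and highest FPKM of 15.2, 19.4 and 24.6 in retina and 14.3, 22.1 and 26.9 in RPE/choroid. Its scaled fragments were lower in retina in every genotype (log2 -0.37 in knock-in, -0.23 in knockout and -0.69 in wild-type mice; edgeR adjusted p = 0.00191, 0.0349 and 5.05e-06), and the knockout call was lost on leaving out knockout retina library 0 or 2 or knockout RPE/choroid library 0 or 1. Bak1 was lower by a larger margin, at 3.71 to 5.23 FPKM in retina and 13.7 to 17.4 FPKM in RPE/choroid, and Bok, a less studied pore former, had 6.12 to 9.84 and 9.89 to 17.1 FPKM. All 3 were called lower in retina in all genotypes.

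All 3 protective BCL2 genes were also called lower in retina in every genotype. Mcl1, whose product is short-lived, had the highest median of the 36 genes in RPE/choroid, with lowest, median and highest FPKM of 32.0, 34.1 and 41.8 in retina and 90.2, 112.8 and 121.9 in RPE/choroid. Bcl2 had 3.10, 3.95 and 4.71 FPKM in retina and 12.4, 13.2 and 16.9 FPKM in RPE/choroid, and Bcl2l1, which encodes BCL-XL, had 23.8, 30.3 and 32.4 FPKM in retina and 32.6, 41.6 and 47.3 FPKM in RPE/choroid. Within retina, Bcl2l1 and Mcl1 were thus far above Bcl2 per length, with no overlap of libraries. Log2 differences ran from -1.82 to -2.07 for Bcl2, from -1.59 to -1.68 for Mcl1 and from -0.43 to -0.72 for Bcl2l1 over the 3 genotypes.

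Of the 5 BH3-only genes, the sensors that trigger the pathway, 2 were called in all genotypes. Bcl2l11, which encodes BIM, had a median of 3.81 FPKM in retina and 3.71 FPKM in RPE/choroid and was not called in any genotype. Pmaip1 (NOXA), a p53 target, had 0.645 and 0.903 FPKM and was not called, and Bbc3 (PUMA), another p53 target, had 1.05 and 0.8501 FPKM and was called lower in knock-in retina alone (-0.72, edgeR adjusted p = 0.0195), a call lost without knock-in retina library 2 or knock-in RPE/choroid library 0. Bid, the link from caspase-8 to mitochondria, and Bad, which growth factor signalling inactivates, were called lower in retina in all genotypes, with medians of 1.89 and 13.9 FPKM in retina against 3.66 and 19.3 FPKM in RPE/choroid.

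Of the apoptosome and mitochondrial genes, Cycs, which encodes cytochrome c, was second by median in both tissues, at 40.0 FPKM in retina and 71.1 FPKM in RPE/choroid, with a log2 difference of -0.90 in knock-in, -0.66 in knockout and -0.76 in wild-type mice. Its value is less certain than others because processed pseudogenes of Cycs exist. Aifm1, the gene of AIF, was called lower in all 3 genotypes (-0.74, -0.67 and -0.73), and so was Apaf1 (-0.31, -0.39 and -0.25), though wild-type Apaf1 lost its call without wild-type retina library 1 or 2 or without RPE/choroid library 2. Diablo, which encodes the IAP antagonist SMAC, was level, with medians of 22.7 FPKM in retina and 21.4 FPKM in RPE/choroid and no call. Endog, a mitochondrial nuclease, was called in knockout mice alone (-0.41, edgeR adjusted p = 0.0265), and leaving out any knockout library but RPE/choroid library 2 ended the call. Casp9, Bad, Diablo and Endog overlap Cela2a, Gpr137, B3gnt4 and D2Wsu81e in the deposited loci, and whether counting used strand is not given in the sources used here, so those 4 are uncertain.

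The inhibitors of apoptosis split. Xiap encodes a direct caspase inhibitor. Its retinal scaled CPM were 886.9, 883.5 and 903.0 in knock-in, 950.4, 950.3 and 875.2 in knockout and 1026.0, 877.2 and 784.7 in wild-type libraries. RPE/choroid had 226.4, 225.6 and 202.2 in knock-in, 235.2, 227.4 and 227.8 in knockout and 198.0, 212.8 and 275.1 in wild-type libraries. In FPKM, Xiap ranged from 129.5 to 164.1 in retina and from 29.4 to 67.5 in RPE/choroid. On both scales it was the highest of the 36 genes in every retina library group and did not overlap between tissues. The wild-type RPE/choroid library that was rich in rod RNA was the closest. Its log2 difference was 2.03 in knock-in, 2.01 in knockout and 1.97 in wild-type mice (SE 0.109 each; edgeR adjusted p = 2.05e-11, 2.52e-11 and 3.29e-11).

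Birc2, which encodes the ubiquitin ligase cIAP1, was higher in retina by a small margin. By scaled CPM it had 72.9, 75.2 and 70.6 in knock-in, 72.4, 70.4 and 72.2 in knockout retina and 80.1, 78.4 and 76.9 in wild-type retina, against 57.7, 57.6 and 54.6 in knock-in, 60.6, 59.6 and 65.2 in knockout and 52.6, 60.1 and 57.2 in wild-type RPE/choroid. The tissues did not overlap on this scale, whereas in FPKM they did (19.5 to 24.7 in retina and 14.5 to 23.0 in RPE/choroid). The log2 differences were 0.36, 0.21 and 0.47 (SE 0.055 each; edgeR adjusted p = 9.08e-06, 0.00163 and 4.76e-07). Birc3, which encodes the related cIAP2, an NF-kappaB target, had the opposite direction, at 0.105 to 0.309 FPKM in retina and 6.94 to 9.94 FPKM in RPE/choroid, with log2 differences of -5.59 in knock-in, -5.21 in knockout and -5.39 in wild-type mice.

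Every listed gene of the death receptor pathway (Tnfrsf1a, Fas, Fadd and Cflar) was called lower in retina in all genotypes. Tnfrsf1a, the main TNF receptor, had lowest, median and highest FPKM of 2.00, 2.88 and 4.66 in retina and 39.5, 42.2 and 51.0 in RPE/choroid (log2 -4.05, -3.75 and -4.10 in knock-in, knockout and wild-type mice). The receptor gene Fas had 0.369 to 0.768 FPKM in retina and 5.04 to 11.03 FPKM in RPE/choroid, and the adaptor gene Fadd 1.71 to 2.60 and 5.25 to 7.56 FPKM. Cflar, whose product FLIP restrains caspase-8, had 13.7 to 17.2 FPKM in retina and 32.6 to 45.7 FPKM in RPE/choroid. Per length, Cflar therefore stood far above Casp8 in retina, with no overlap of libraries, and also above it in RPE/choroid.

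Of the necroptosis genes, Ripk3 and Mlkl were near the detection limit in retina. Ripk3, the kinase that commits cells to necroptosis, gave 1, 1 and 2 fragments in knock-in, 0, 2 and 1 in knockout retina and 1, 0 and 0 in wild-type retina, against 53, 44 and 36 in knock-in, 51, 29 and 64 in knockout and 36, 80 and 39 in wild-type RPE/choroid. Mlkl, the executioner, gave 1, 2 and 1 fragments in knock-in, 0, 4 and 4 in knockout retina and 1, 1 and 0 in wild-type retina, against 64, 47 and 44 in knock-in, 64, 55 and 57 in knockout and 62, 88 and 56 in wild-type RPE/choroid. No retina library reached any RPE/choroid library for either gene. From summed fragments Ripk3 was 43.0-fold lower in knock-in retina (exact 95% interval 16.4 to 160.0), 42.9-fold lower in knockout retina (14.4 to 210.0) and 101-fold lower in wild-type retina, where 1 fragment gives an interval of 17.8 to 4000. Mlkl was 50.2-fold lower in knock-in (19.2 to 186), 19.7-fold lower in knockout (9.76 to 46.2) and 67.0-fold lower in wild-type retina (18.3 to 557). Ripk1, which also serves NF-kappaB signalling, was present in both tissues, at 1.78 to 2.21 FPKM in retina and 9.59 to 12.9 FPKM in RPE/choroid.

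The DNA damage pair went in opposite directions. Parp1 was the third gene to be higher in retina, with 94.1, 89.4 and 93.4 scaled CPM in knock-in, 96.0, 88.6 and 99.1 in knockout retina and 95.9, 93.0 and 94.0 in wild-type retina. RPE/choroid had 67.4, 60.8 and 62.8 in knock-in, 67.6, 63.7 and 66.2 in knockout and 55.5, 62.3 and 64.5 in wild-type libraries. The tissues did not overlap, and the log2 differences were 0.54, 0.52 and 0.63 in knock-in, knockout and wild-type mice (SE 0.061 each; edgeR adjusted p = 3.08e-07, 4.39e-07 and 4.14e-08). Trp53, which encodes p53, was lower in retina, at 4.38 to 7.64 FPKM against 14.7 to 20.5 FPKM. Both calpains were lower in retina by more: Capn1 had 3.02 to 4.27 FPKM in retina and 29.3 to 47.1 FPKM in RPE/choroid, and Capn2 had 7.94 to 10.1 and 36.3 to 56.1 FPKM.

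**Figure D2:**
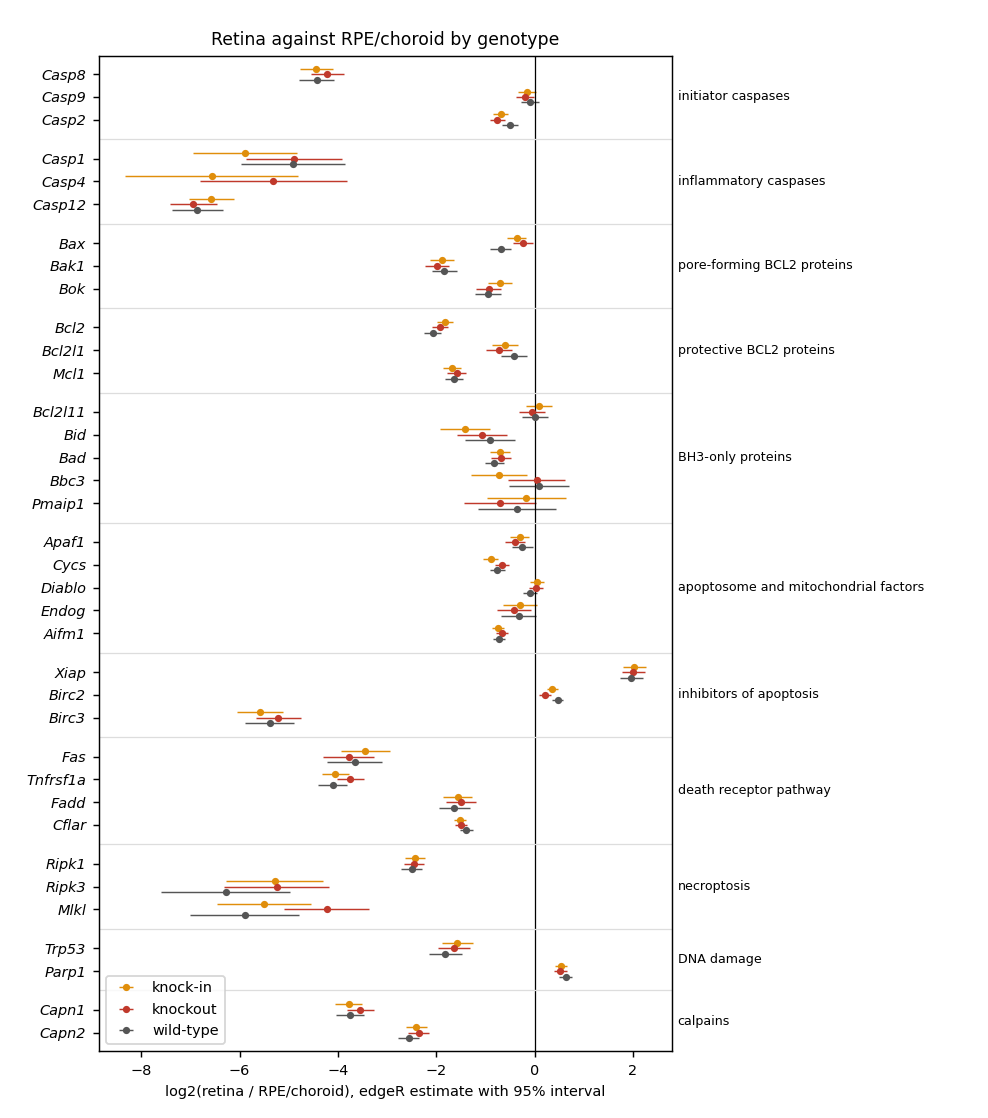
Log2 of retina over RPE/choroid for each of the 36 genes by genotype (edgeR estimate with 95% interval; wild-type Casp4, at 0 fragments in retina, is not drawn). Xiap, Parp1 and Birc2 lie right of 0 in all 3 genotypes, and the genotypes fall close together for most genes. At few retinal fragments the drawn interval can be narrower than counting error, as for wild-type Casp12.

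As the plot of retina against RPE/choroid shows, the 3 genotypes gave much the same order, and 33 genes had the same sign in all of them. The exceptions in sign, Bcl2l11, Bbc3 and Diablo, were near 0, apart from Bbc3 in knock-in mice.

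Isoforms of 3 genes differed between the tissues beyond any overlap of libraries. Of 9 members with 2 or more annotated transcripts, 6 had at least 1 FPKM in every library, and for 3 of these a transcript's share of its gene did not overlap; of all such genes 29.2% had such a transcript. For Trp53 the 1868-base NM_001127233 took 43.8%, 52.5% and 64.8% (lowest, median and highest) in retina and 4.33%, 8.16% and 11.4% in RPE/choroid, the rest being the 1772-base NM_011640. For Cflar the 2018-base NM_009805, much shorter than the 6911-base NM_207653, took 27.9%, 31.3% and 37.1% in retina and 11.1%, 12.6% and 15.9% in RPE/choroid. For Bcl2 the 2518-base NM_177410 took 11.2%, 17.9% and 29.9% in retina and 1.81%, 3.71% and 5.46% in RPE/choroid, beside the 7206-base NM_009741. In each case the form that was minor in RPE/choroid had a larger share in retina. Apaf1, Capn1 and Bcl2l11 overlapped between tissues. These shares are the authors' isoform estimates, and their error is known here only from the spread over libraries.

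**Figure D3:**
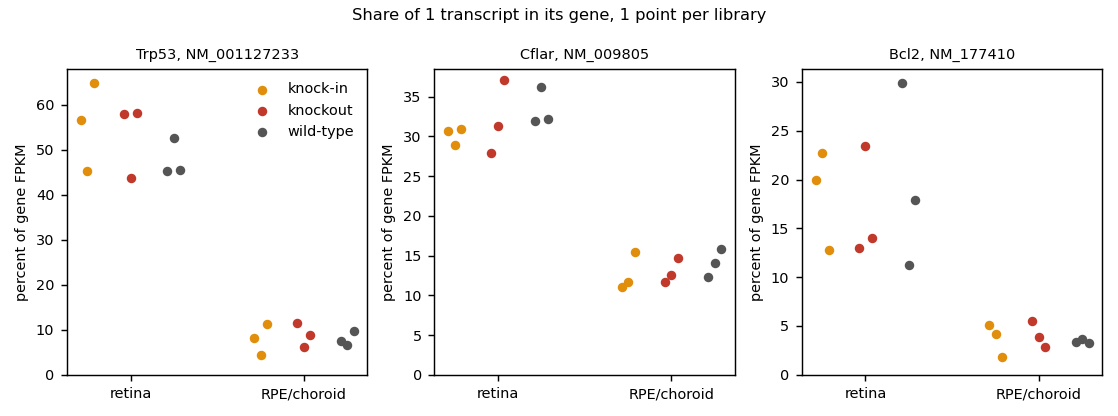
Share of 1 transcript in the FPKM of its gene for Trp53, Cflar and Bcl2, 1 point per library, with retina left and RPE/choroid right, coloured by genotype. Every retina library lies above every RPE/choroid library for each of the 3, and the genotypes mix.

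Between genotypes none of the cell death genes passed the test. In retina 31 of the 36 could be tested, since Casp1, Casp4, Casp12, Ripk3 and Mlkl had too few fragments. Of those, 0 were called between knock-in and wild-type retina (edgeR; 0.265% of all genes were called, and 4 members had an unadjusted p under 0.05). Likewise 0 were called between knockout and wild-type retina (0.98% of all genes; 3 members) and between knock-in and knockout retina (1.26%; 3 members). In RPE/choroid all 36 were tested and 0 were called between knock-in and wild-type (0.0647% of all genes; 2 members), knockout and wild-type (0.472%; 6 members), and knock-in and knockout libraries (0.453%; 2 members). The shares in brackets are of adjusted calls and are no match for the member counts, which are at an unadjusted p under 0.05. Unadjusted counts over all genes are given with the further lists below, except between knock-in and knockout retina. DESeq2 called 1 member, Casp4, between knockout and wild-type RPE/choroid and 0 in the other 5 comparisons. Limma called 0 in all 6, but it was run on FPKM and not on fragment counts.

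**Figure D4:**
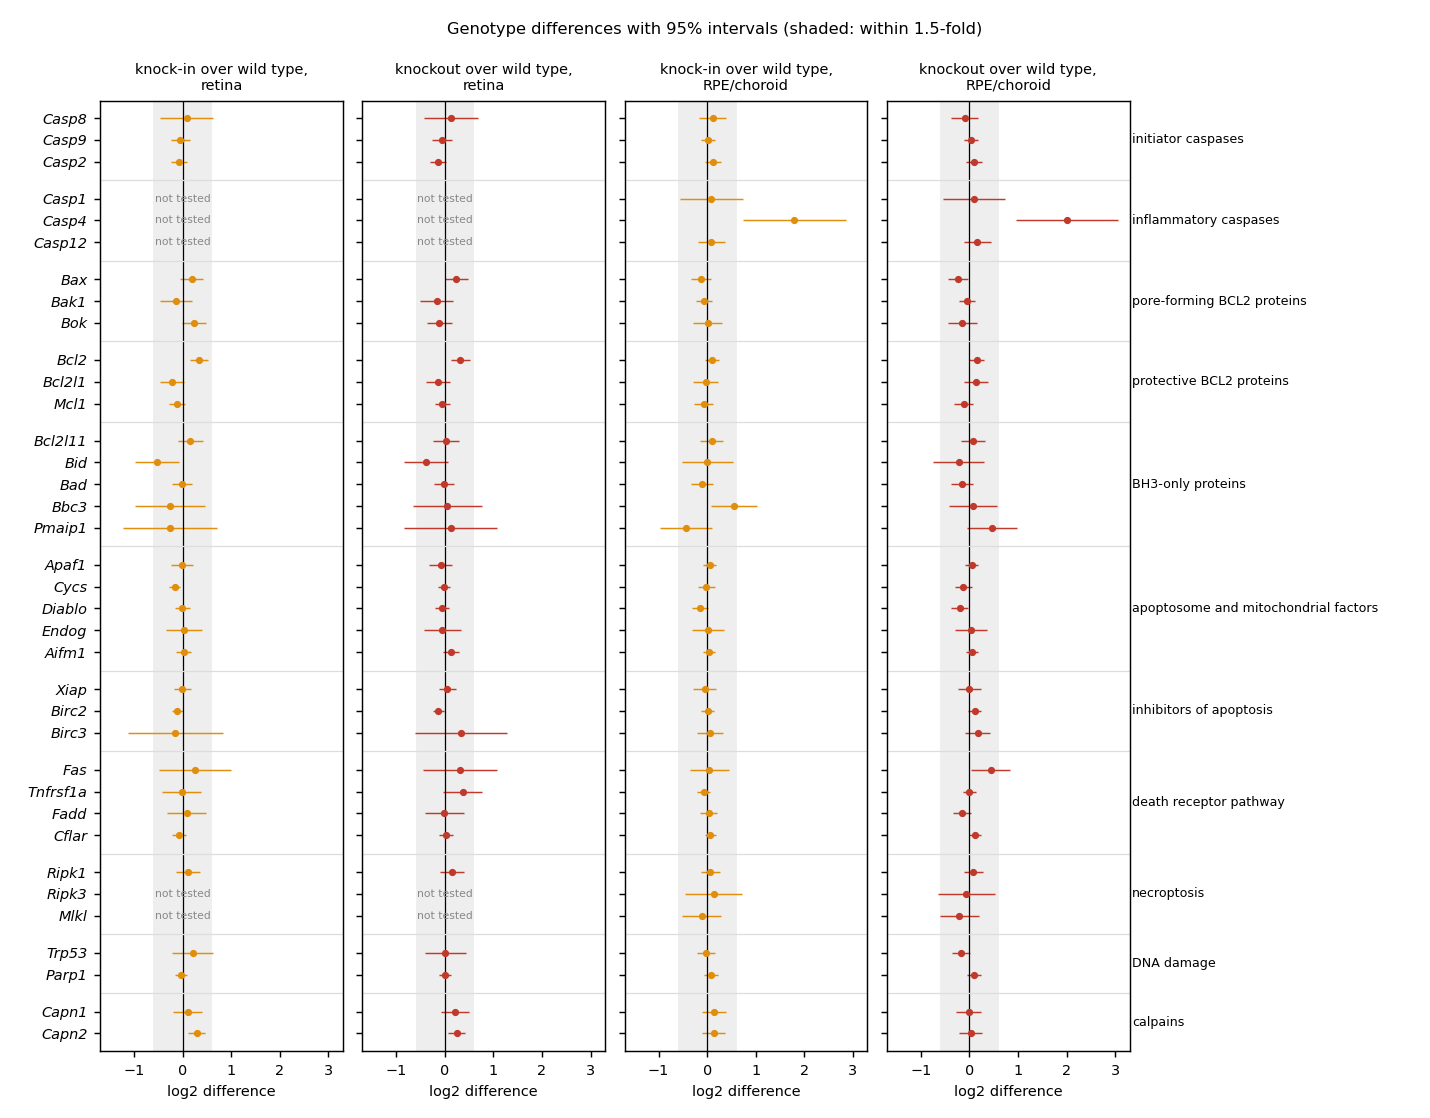
Log2 difference of knock-in and of knockout over wild type in retina (left panels) and RPE/choroid (right panels) for each gene, edgeR estimate with 95% interval; the shaded band is within 1.5-fold. Most intervals lie inside the band, and Casp4 in RPE/choroid lies farthest from 0.

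How large a change the data leave room for is shown by the intervals in the plot of genotype differences. The 95% interval lay within 1.5-fold in both directions for 24 of 31 genes between knock-in and wild-type retina and for 24 of 31 between knockout and wild-type retina. In RPE/choroid it did so for 31 of 36 between knock-in and wild-type and for 29 of 36 between knockout and wild-type libraries. The genes with wider intervals in both retinal comparisons with wild type were Casp8, Bid, Bbc3, Pmaip1, Birc3 and Fas, joined by Trp53 for the knock-in and Tnfrsf1a for the knockout, so a change of that size is not excluded for them. In RPE/choroid the wider ones in both comparisons were Casp1, Casp4, Pmaip1 and Ripk3, joined by Bbc3 for the knock-in and by Bid, Fas and Mlkl for the knockout. The median log2 difference of the members was between -0.033 and 0.034 in all 6 comparisons.

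Bcl2 had the smallest p of the members in both retinal comparisons with wild type. It had 30.2, 24.5 and 24.8 scaled CPM in knock-in retina, 26.7, 27.3 and 24.3 in knockout retina, and 20.9, 21.2 and 20.8 in wild-type retina. All 6 mutant libraries lay above all 3 wild-type libraries. The log2 difference was 0.34 (SE 0.088, 95% interval 0.149 to 0.527, edgeR adjusted p = 0.186) in knock-in and 0.32 (SE 0.089, 0.126 to 0.508, edgeR adjusted p = 0.132) in knockout over wild-type retina; the comparisons share their wild-type libraries. Neither passed after adjustment over all genes, and the adjusted p over alternatives ran from 0.146 to 0.921 for the knock-in and from 0.0990 to 0.643 for the knockout.

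Capn2, the large subunit of m-calpain, followed a like pattern in retina with 33.8, 28.2 and 31.1 scaled CPM in knock-in, 30.1, 29.4 and 31.3 in knockout and 27.1, 24.8 and 24.4 in wild-type libraries (log2 0.29, edgeR adjusted p = 0.241 for the knock-in; 0.25, edgeR adjusted p = 0.203 for the knockout). Bid had 3.74, 2.74 and 1.97 in knock-in, 3.25, 2.94 and 3.27 in knockout retina and 3.95, 4.46 and 3.89 in wild-type retina, every mutant library below every wild-type library (log2 -0.53, edgeR adjusted p = 0.489, and -0.38, edgeR adjusted p = 0.476). Neither gene was called. Not overlapping is common among all genes on this scale: 15.6% for the knock-in and 18.1% for the knockout. Of 27 members at 1 FPKM or more, 7 (Bax, Bok, Bcl2 and Capn2 above, Bid, Cycs and Birc2 below) did not overlap between knock-in and wild-type retina, and 5 (Bcl2 and Capn2 above, Casp2, Bid and Birc2 below) did not between knockout and wild-type retina.

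Between the 2 mutants in retina, Bok had the smallest p. It had 8.67, 8.64 and 9.66 scaled CPM in knock-in retina, 6.65, 7.32 and 7.23 in knockout retina, and 7.02, 7.99 and 7.94 in wild-type retina. Knock-in libraries lay above both other genotypes. The log2 difference of knock-in over knockout was 0.35 (SE 0.115, edgeR adjusted p = 0.201) and was not called. Of 27 members at 1 FPKM or more 3 did not overlap between knock-in and knockout retina (Bok above, Cycs and Aifm1 below), beside 17.8% of all genes. For Bok in FPKM, the knock-in libraries (9.84, 9.69 and 8.09) overlapped the knockout libraries (7.95, 8.36 and 6.12).

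In RPE/choroid, Casp4 stood out in size. Scaled CPM were 0.753, 2.97 and 2.46 in knock-in, 2.85, 2.43 and 1.92 in knockout and 0.721, 0.621 and 0.409 in wild-type libraries. All 3 knockout libraries lay well above wild type, while knock-in library 0 lay beside the highest wild-type library and, in FPKM, within the wild-type range (0.410, 1.94 and 1.83 FPKM in knock-in, 1.59, 1.59 and 1.36 FPKM in knockout, and 0.419, 0.415 and 0.299 FPKM in wild-type libraries). The log2 difference was 1.80 (SE 0.477, edgeR adjusted p = 0.758) for knock-in and 2.01 (SE 0.470, 95% interval 0.954 to 3.056, edgeR adjusted p = 0.110) for knockout over wild-type RPE/choroid, and -0.21 for knock-in over knockout. Without knock-in library 0 the knock-in value was 2.21 with an edgeR adjusted p of 0.0982.

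The knockout difference of Casp4 passed with DESeq2 (adjusted p = 0.00884) and with a term for rod RNA in edgeR (adjusted p = 0.0293), and lay between 0.0718 and 0.592 in the other settings. In the authors' deposited table Casp4 was significant in RPE/choroid for the knock-in and for the knockout against wild type, each with a q-value of 0.00347, and was the only one of the 36 genes marked so. Its neighbours did not share the pattern. Casp1 had 8.74, 13.04 and 8.49 scaled CPM in knock-in, 10.4, 10.8 and 9.61 in knockout and 11.8, 11.3 and 5.44 in wild-type RPE/choroid, and Casp12 had 26.3, 29.8 and 25.7 in knock-in, 31.1, 28.5 and 28.4 in knockout and 29.4, 27.2 and 21.0 in wild-type RPE/choroid, all overlapping. Summed microglia and leukocyte markers in RPE/choroid were 316, 319 and 289 FPKM in knock-in, 319.9, 276 and 254 FPKM in knockout and 373, 324 and 272 FPKM in wild-type libraries, and the genotypes overlapped. The strain of origin of the Casp4 allele, which differs between 129 and C57BL/6 mice, was not analysed here.

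**Figure D5:**
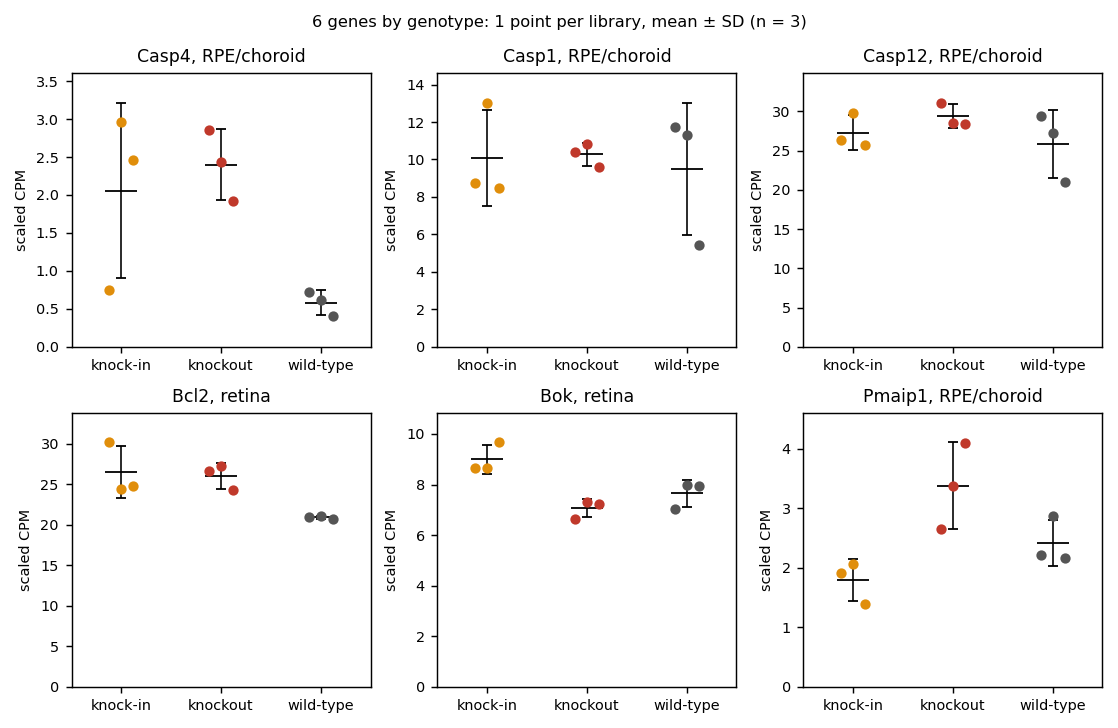
Scaled CPM in each library for Casp4, Casp1, Casp12 and Pmaip1 in RPE/choroid and Bcl2 and Bok in retina, by genotype (points), with mean and SD (n = 3). Knockout Casp4 libraries lie between 1.92 and 2.85 and wild-type ones between 0.409 and 0.721, while Casp1 and Casp12 overlap between genotypes.

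Pmaip1 had the smallest p between the 2 mutants in RPE/choroid. It had 1.91, 2.07 and 1.40 scaled CPM in knock-in, 2.66, 3.38 and 4.10 in knockout and 2.22, 2.86 and 2.16 in wild-type libraries. Every knock-in library lay below every knockout and every wild-type library, and the knockout overlapped wild type. The log2 difference of knock-in over knockout was -0.89 (SE 0.237, edgeR adjusted p = 0.182) and was not called. The plot by genotype shows these values beside those of Casp4, Bcl2 and Bok.

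Other members at an unadjusted p under 0.05 in RPE/choroid had small differences. Between knockout and wild type these were Bax (-0.24), Bcl2 (0.15), Diablo (-0.20), Fas (0.44) and Cflar (0.12, all log2), with edgeR adjusted p from 0.239 to 0.315. Of 35 members at 1 FPKM or more, 7 did not overlap between knockout and wild-type RPE/choroid by scaled fragments (Casp4, Bcl2, Fas and Cflar above, Bax, Cycs and Diablo below), beside 22.5% of all genes. Wild-type library 2, rich in rod RNA, was the lowest of its group for Bcl2, Fas and Casp4 and the highest for Bax, and without it edgeR again called 0 members. Between knock-in and wild type Bbc3 had 2.26, 1.66 and 1.79 scaled CPM in knock-in and 1.39, 1.21 and 1.34 in wild-type libraries (log2 0.55, edgeR adjusted p = 0.854), and of 35 members at 1 FPKM or more Casp4 and Bbc3 did not overlap, beside 9.62% of all genes. Between knock-in and knockout libraries Fadd was also at an unadjusted p under 0.05 (log2 0.19, edgeR adjusted p = 0.402), and of 36 members at 1 FPKM or more 7 did not overlap (Bbc3 and Fadd above, Pmaip1, Xiap, Birc2, Fas and Cflar below), beside 23.0% of all genes.

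Whether a mutant's effect differed between RPE/choroid and retina was tested as the difference of the 2 effects. For the knock-in 0 of 36 members were called (0.0555% of all genes; 2 members, Bax and Bcl2, at an unadjusted edgeR p under 0.05), and for the knockout 0 of 36 (0.136% of all genes; 3 members, Casp2, Bax and Birc2). Here too the shares of all genes are of adjusted calls, unlike the unadjusted member counts. Bax had the smallest p for the knockout. It had 12.1, 12.5 and 12.4 scaled CPM in knock-in, 11.4, 14.2 and 12.5 in knockout retina and 9.77, 11.1 and 11.7 in wild-type retina. In RPE/choroid it had 15.9, 14.8 and 16.8 in knock-in, 15.2, 15.6 and 14.0 in knockout and 17.5, 16.2 and 18.8 in wild-type libraries. Mutant means lay above wild type in retina and below it in RPE/choroid, with a log2 difference of effects, RPE/choroid minus retina, of -0.46 for the knockout (SE 0.137, edgeR adjusted p = 0.189) and -0.33 for the knock-in (edgeR adjusted p = 0.815), neither called.

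Genes beyond the 36 in the same programmes were counted in 7 further lists. Against wild type, knock-in retina had 0 calls by edgeR in every list (9 of 97 genes tested at an unadjusted p under 0.05, beside 1250 of all 14699 genes). Knockout retina had 3 calls of 97, where 0.98% of all genes were called (18 of 97 at an unadjusted p under 0.05, beside 1839 of 14699). Those were Il18, a cytokine that caspase-1 matures, which was higher in knockout retina (log2 1.02, SE 0.197, edgeR adjusted p = 0.0317; 1 of 7 pyroptosis and inflammasome genes tested), Btg2, an antiproliferative p53 target, which was lower (-0.36, SE 0.061, edgeR adjusted p = 0.0113; 1 of 18 p53 targets), and Tnfaip3, which encodes the NF-kappaB inhibitor A20 and was lower (-0.28, SE 0.057, edgeR adjusted p = 0.0354; 1 of 19 TNF signalling genes). The p53 list includes Bax, Fas, Bbc3 and Pmaip1. Other caspases and BCL2 genes (14 tested), calpain genes (9), ferroptosis genes (15) and DNA damage genes (15) had 0 calls in knockout retina, with the smallest p for Bmf (log2 -1.13, edgeR adjusted p = 0.154), Capn6 (log2 1.17, adjusted p = 0.0645), Gclm (log2 0.35, adjusted p = 0.220) and Hk1 (log2 0.17, adjusted p = 0.310).

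Each of these 3 calls was lost in several settings. Il18 lost its call without knockout retina library 1 or 2 or wild-type library 0 (edgeR adjusted p 0.101 to 0.130), Btg2 without knockout library 1 or wild-type library 1 (0.0727 and 0.0913), and Tnfaip3 without knockout library 1 or 2 or any wild-type library (0.0710 to 0.202). With limma the adjusted p was 0.117 or 0.121 for Il18, 0.370 or 0.381 for Btg2 and 0.217 or 0.222 for Tnfaip3 by pseudocount, and with the replicate number as a block Il18 had an edgeR adjusted p of 0.0582. With a term for RPE RNA the 3 had an edgeR adjusted p of 0.278, 0.113 and 0.194; 4 of 14 RPE markers (Lrat, Rgr, Rpe65 and Slc6a20a) were themselves higher in knockout than wild-type retina. With a term for lens RNA the adjusted p was 0.210, 0.146 and 0.263 for Il18, Btg2 and Tnfaip3, and all 18 lens markers had a positive log2 difference in knockout retina (median 4.20, 0 called by edgeR). Between the mutants in retina, 19 of 97 list genes were at an unadjusted edgeR p under 0.05, with no such count over all genes given here. Btg2 was higher in knock-in than knockout retina (0.46, SE 0.061, edgeR adjusted p = 0.00159). It was the only call of the lists in that comparison, where 1.26% of all genes were called. That call held in the other settings but limma, whose adjusted p was 0.177 or 0.179 by pseudocount.

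In RPE/choroid 0 genes of the 7 lists were called between any genotypes by edgeR, among 19 other caspases and BCL2 genes, 20 p53 targets, 12 pyroptosis, 23 TNF signalling, 11 calpain, 16 ferroptosis and 15 DNA damage genes tested. At an unadjusted p under 0.05 were 10 of 116 genes for knock-in over wild type, 20 for knockout over wild type and 14 for knock-in over knockout, beside 854, 2401 and 1890 of all 15454 genes. The smallest p for knockout over wild type belonged to Slc7a11, the cystine importer that restrains ferroptosis (log2 0.38, edgeR adjusted p = 0.105), and Il1b (-1.75, edgeR adjusted p = 0.128). In the difference of effects between tissues, 1 list gene was called for the knockout: Capn6, a calpain without protease activity (-1.35, SE 0.181, edgeR adjusted p = 0.00552), and the call was lost without wild-type retina library 0 (0.0570) or 1 (0.0646).

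The lists were also counted between tissues, where 41.9% of all genes tested were called higher and 44.0% lower in wild-type retina. In wild-type mice 1 pyroptosis gene was higher and 11 were lower in retina of 12 tested, and 1 ferroptosis gene was higher and 15 were lower of 16. Of the calpain genes 3 were higher and 8 lower of 11, of p53 targets 5 and 12 of 20, of other caspases and BCL2 genes 5 and 11 of 20, and of TNF signalling genes 5 and 14 of 23. Of DNA damage genes 8 were higher and 5 lower in retina of 15. The medians ran from -2.94 (log2, retina over RPE/choroid) for pyroptosis genes to 0.19 for DNA damage genes, beside -0.04 for all genes tested.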

How the data were processed

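Retina and RPE/choroid of knock-in, knockout and wild-type mice were measured by RNA sequencing (TruSeq Stranded total RNA after Ribo-Zero Gold, paired reads, per the labels' protocols). Per the submitters' processing notes, TopHat, Bowtie2 and Cufflinks were used with mm9, the versions not given in the sources used here. For each tissue apart, the authors deposited estimated counts of fragments and FPKM per gene and library, FPKM per transcript and by genotype, and their own comparisons with p-values and q-values. Fragment values were whole for 98.5% of retina and 98.4% of RPE/choroid entries (within 1e-09) and were rounded to whole numbers. The tables' loci count starts from 0 and were turned into starts counted from 1. Estimates marked failed were 10 in retina and 3 in RPE/choroid, none among the 36 genes. Libraries were mapped to groups by the genotype in the tables' names; the tables number libraries 0 to 2 and the labels 1 to 3, and no link was assumed.

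Counts were tested with edgeR 4.0.16 (R 4.3.3; filterByExpr, TMM, robust quasi-likelihood), 9 libraries per tissue for genotypes and all 18 for tissues and differences of effects, with Benjamini-Hochberg adjustment over all genes and a threshold of 0.05. Biological coefficients of variation were 0.114 in retina, 0.154 in RPE/choroid and 0.137 jointly. Scaled CPM used the effective library sizes of the 18 libraries and were added after the FPKM had been seen. Intervals of summed fragments are exact and cover counting error only. Standard errors of edgeR differences are the size of the log2 difference over the square root of the F statistic. The 95% intervals of log2 differences were built from them. For genes at few fragments they can be narrower than counting error. Replicates differed beyond sampling noise (chi-square per gene 3.28 to 94.9 over 18 pairs). The script was tested on simulated data. Alternatives were DESeq2 1.42.0, limma 3.58.1 on log2(FPKM + 1) or log2(FPKM + 0.1), other scaling and filters, terms for replicate number, sex, rod or RPE RNA, a term for lens RNA chosen after seeing the data, the compared groups alone, and leaving out each library. Table numbers did not pair the libraries (correlation of deviations -0.468 to 0.213 in retina and -0.118 to 0.243 in RPE/choroid).

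The 36 genes and all lists were chosen with earlier results of these data known. Named genes were Abca4; members called between genotypes, or with the smallest p in each genotype comparison; up to 4 members with the largest tissue difference in each direction among those called in all 3 genotypes with at least 1 FPKM in a group; and, of each further list, called genes or the one with the smallest p. Capn2, Bid, Bax, Bbc3, Casp1 and Casp12 between genotypes were added after their values were seen.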

Additional observations from a re-analysis of the deposited data

How the results depend on the processing

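Between genotypes and in the differences of effects between tissues, the number of cell death genes called was 0 in 136 of 138 alternative values; the exceptions were 1 between knockout and wild-type RPE/choroid with DESeq2 and 1 there with a rod term. Leaving out any 1 library gave 0 calls in each. With the replicate number as a block, 0 members were called in every genotype comparison. It is not known whether the table numbers stand for a shared batch, so this block is a check of the fit only. Between tissues 29 to 32 members were called over 36 alternative values, those with a term for sex included. Of 581 alternative values of named genes in genotype comparisons and differences of effects, 27 lost a call, 11 gained one and 0 reversed; of 1295 values of members between tissues, 29 lost a call, 9 gained one and 0 reversed. With a term for sex 0 members were called in every genotype comparison, and all genes called for knock-in over wild-type retina were 14. Counts over all genes moved far more. For knock-in over wild type, 39 genes in retina (9 with limma to 115 with DESeq2) and 10 in RPE/choroid (2 to 44) were called; for knockout over wild type, 144 in retina (27 to 327) and 73 in RPE/choroid (17 to 532, and 462 without wild-type RPE/choroid library 2); for knock-in over knockout, 185 in retina (20 to 324) and 70 in RPE/choroid (23 to 313). The difference of effects had 9 calls for the knock-in (1 with the replicate block to 37) and 22 for the knockout (8 with the replicate block to 250). The causes were not tested. In retina Casp1, Casp4, Casp12, Ripk3 and Mlkl had too few fragments for a genotype test.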
